A study of Arabidopsis thaliana with 32 samples.

Results

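The dexamethasone response of Arabidopsis thaliana callus carrying an inducible LEAFY protein was compared between 22 h and 12 h of treatment. The difference is the treated over control ratio at 22 h minus the same ratio at 12 h. The comparison rests on 8 of the 32 two-colour cDNA arrays of a time course, 4 at 12 h and 4 at 22 h, and covers 10699 of the 10816 array features, namely those with at least 1 value in each dye orientation at both times. Every array held RNA of callus from 35S:LFY-GR plants on both channels, 1 channel from tissue given a dexamethasone-containing solution and 1 from tissue given a control solution for the same time, so the transgene was present in treated and control samples alike. No array held treated tissue without the transgene, so a response to dexamethasone itself cannot be told apart from one to activated LEAFY. A change in the control tissue between 12 h and 22 h would also move the ratio. The labels describe the starting tissue as root explants, and the array as enriched for transcripts specific to flowers. They give neither the number of plants or explants behind an array, nor the number of transgenic lines, nor whether the 4 arrays of a time carry RNA from separate cultures. The p-values rest on array-to-array spread alone, and that spread can be technical.

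LEAFY (LFY) is a transcription factor that turns newly formed meristems into flowers and acts upstream of floral identity genes. In LFY-GR it is fused to the steroid-binding part of the glucocorticoid receptor, which keeps the protein out of the nucleus until a steroid such as dexamethasone is supplied. The 35S promoter of a plant virus drives the fusion in most tissues, callus included. Later changes in such a system hold the direct targets of the factor together with genes that respond to those targets, and total RNA does not separate them. Whether a different number of cells responded or each cell responded to a different degree cannot be told apart in bulk tissue.

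The deposited values were taken as log10 ratios and are given here as log2 ratios. On the log2 scale 1 is a 2-fold and 2 a 4-fold difference between treated and control RNA. On replicates 1 and 3 the labels place the treated RNA in channel 2, and on replicates 2 and 4 in channel 1. Before the sign of replicates 2 and 4 was turned, arrays of opposite orientation correlated at -0.386 to -0.131 across features, within and between the 2 times, and arrays of the same orientation at 0.249 to 0.530. The numerator is not stated in the sources used here. A positive value is likely treated over control, on the convention of channel 2 over channel 1, and every direction below exchanges if the ratio was the reverse. Values held at the limit of the scale, an absolute log10 of 2, made up 0.790% of the values on the 8 arrays and were set to missing. They were uneven, with 112 and 151 at the upper limit on replicates 1 and 2 at 12 h, 159 on replicate 1 at 22 h, and 2 to 47 on the other 5 arrays. The features are identified by plate position, 0 of them matched the Arabidopsis gene table used here, and the files pair them with no gene name or sequence. The text describes groups of features and gives the identifier of 2. Markers of callus, of flower or of any other tissue could not be read for the same reason, so the labelled tissue was not checked.

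Of the 10699 features, 21 had a ratio that was higher at 22 h than at 12 h and 0 had a lower one (limma, adjusted p under 0.05, 0.196% of those tested). The ratio of these 21 features grew by 0.76 to 1.42 on the log2 scale, with a median of 1.11, which is a 1.70- to 2.67-fold gain and a median of 2.16-fold. The lowest bound of their 95% intervals was 0.45. All 21 had values on all 8 arrays, the lowest 22 h array lay above the highest 12 h array in each of them, and none had a value at the limit. Over all 10307 features with 8 values, 124 (1.2%) had all 22 h arrays above all 12 h arrays and 59 (0.572%) had them below. With no change, 1 in 70 features would be expected in each direction, and both shares were under that. At an unadjusted p under 0.05, limma found 423 features (3.95%), 301 higher and 122 lower at 22 h. That is under the share of 0.05 expected with no change. With the replicate number as a block, 49 features were higher and 0 lower, and the 21 were among the 49. Treating replicates 1 and 2, and likewise 3 and 4, as dye swaps of shared RNA and averaging each set, 3 were higher and 0 lower, and neither named feature was among the 3. The count fell to 0 once each array was scaled to the same spread (359 features then had an unadjusted p under 0.05), and also when only the 8 arrays were fitted (354 unadjusted). Both unadjusted counts lie under a share of 0.05.

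**Figure D1:**
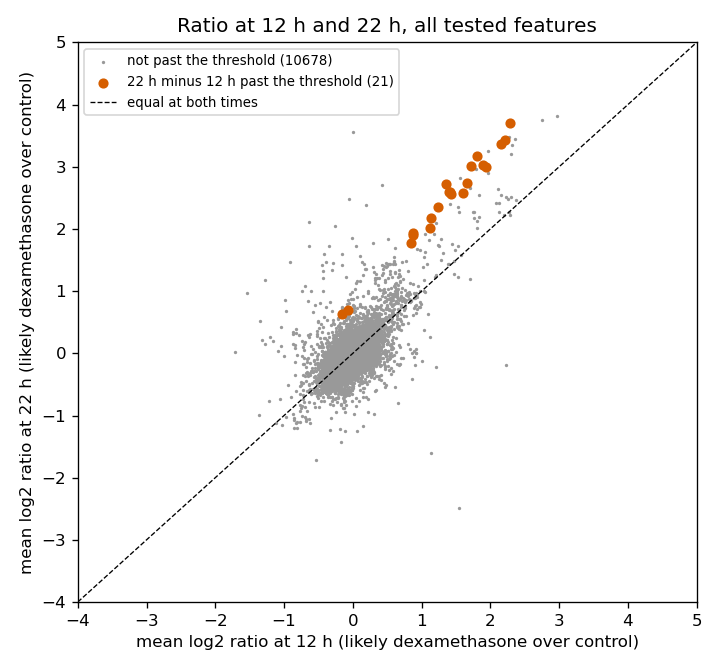
Each point is 1 of 10699 features, with its mean log2 ratio over the arrays at 12 h on the x axis and at 22 h on the y axis, likely dexamethasone over control. The 21 features past the threshold (orange) lie above the dashed line of equal ratios, 19 of them at 12 h means of 0.84 to 2.29 and the other 2 near 0.

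Feature GP001G2 had the largest gain among the 21, but with scaled arrays its difference of 0.67 was below the 0.86 of feature GP057F6. The log2 ratio of GP001G2 at 12 h was 2.84, 2.04, 1.77 and 2.51 on replicates 1 to 4, and at 22 h it was 3.76, 3.88, 3.88 and 3.298. The 4 arrays at 22 h all stood above the highest one at 12 h. The means were 2.29 ± 0.48 (SD, n = 4) and 3.71 ± 0.28, a ratio of 4.89-fold that became 13.1-fold. The difference was 1.42 (SE 0.30, 95% interval 0.79 to 2.04, limma adjusted p = 0.0385). It is the feature of the 21 nearest to the threshold, and its call was lost with limit values kept (adjusted p = 0.0578) and with no dye term (adjusted p = 0.0582). It was also lost with dye swaps averaged (adjusted p = 0.0525), with only the 8 arrays (limma adjusted p = 0.353) and with scaled arrays (limma adjusted p = 0.9999). With 1 array left out it was lost without replicate 2, 3 or 4 at 12 h (adjusted p = 0.242, 0.247 and 0.0724) and without replicate 1, 2 or 3 at 22 h (adjusted p = 0.141, 0.124 and 0.217).

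Feature GP057F6 had the second largest gain. It read 1.45, 0.64, 1.60 and 1.73 on the 12 h arrays and 2.56, 2.67, 3.02 and 2.64 on the 22 h arrays. Replicate 2 at 12 h was the lowest of the 8, and the groups did not overlap. The means were 1.36 ± 0.49 (SD, n = 4) and 2.72 ± 0.20, with a difference of 1.37 (SE 0.25, 95% interval 0.86 to 1.87, limma adjusted p = 0.00908). Without replicate 2 at 12 h the difference was 1.08 and the call was lost (adjusted p = 0.0725), as it was without replicate 3 at 22 h (1.23, adjusted p = 0.0863) and with dye swaps averaged (adjusted p = 0.0584). The call was lost too with only the 8 arrays (limma adjusted p = 0.353) and with scaled arrays (0.86, limma adjusted p = 0.977).

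The levels of the 21 features at 12 h and 22 h stand on either side of the difference. At 12 h, 19 of the 21 had a ratio above 0 past the threshold, where the share over all features was 2.36% (253 features). Their 12 h means ran from 0.84 to 2.29 with a median of 1.43 (2.70-fold), and their 22 h means from 1.77 to 3.71 with a median of 2.60 (6.06-fold). At 22 h all 21 were above 0 past the threshold, where the share over all features was 4.27% (457). The 12 h and 22 h arrays enter both the levels and the difference that chose the features, so both counts are a description and nothing is read from them.

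**Figure D2:**
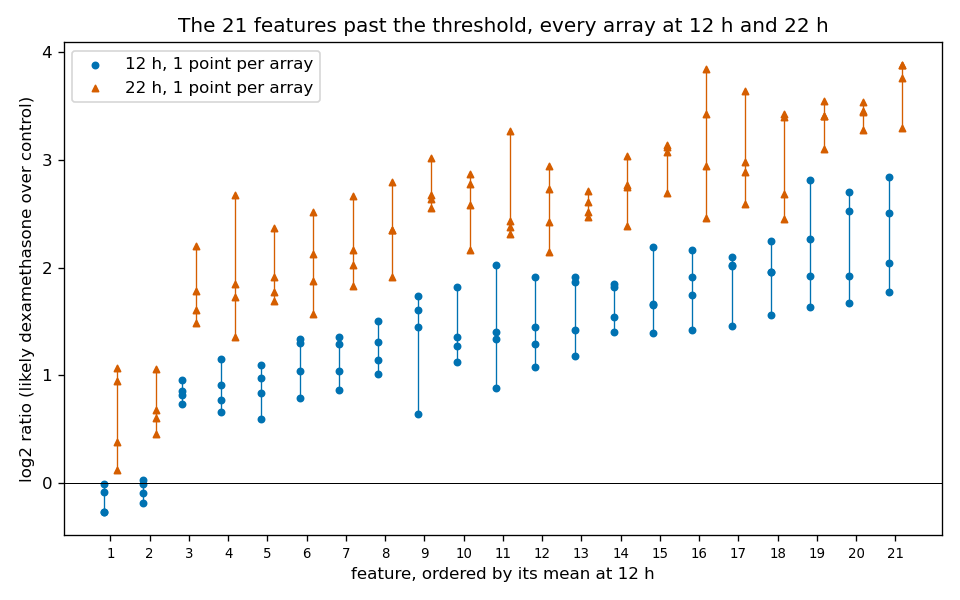
The log2 ratio of each of the 21 features on the 4 arrays at 12 h (blue circles) and the 4 arrays at 22 h (orange triangles), with lines from the lowest to the highest array. Features are ordered on the x axis by their 12 h mean, and in each of them the 22 h arrays lie above the 12 h arrays.

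The other 2 of the 21 were not raised at 12 h. They were set apart after their values were seen and fall outside the rule for naming features, so no identifier is given. The first read 0.03, -0.09, -0.19 and -0.01 on the 12 h arrays and 0.61, 0.68, 1.06 and 0.46 on the 22 h arrays, a difference of 0.76 (SE 0.14, limma adjusted p = 0.0117). At 6 h all 4 arrays had been below 0, at -0.22, -0.42, -0.28 and -0.58, and that mean of -0.37 was itself past the threshold (limma adjusted p = 0.0370). This feature therefore stood below control at 6 h and above it at 22 h. Over all features, 112 of 10691 were below control past the threshold at 6 h. The second read -0.01, -0.27, -0.27 and -0.08 at 12 h and 0.38, 0.94, 1.07 and 0.12 at 22 h, a difference of 0.79 (SE 0.16, limma adjusted p = 0.0249). It was below 0 on all 4 arrays at 6 h too, with a mean of -0.23 ± 0.08 (SD, n = 4) that did not pass (limma adjusted p = 0.388). The 22 h arrays of the second feature were spread more widely, from 0.12 on replicate 4 to 1.07 on replicate 3.

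The 24 arrays from 0 to 10 h gave the difference only their share of the dye term and the pooled spread, and they show how the 21 features reached their 12 h level. The median of the 21 on a 0 h array lay between -0.05 and -0.04. It ranged over the arrays of a time from 0.07 to 0.21 (2 h), 0.15 to 0.34 (4 h), 0.42 to 0.93 (6 h), 0.42 to 1.28 (8 h) and 1.21 to 1.38 (10 h). On the 12 h arrays it was 1.14 to 1.82 and on the 22 h arrays 2.38 to 2.94, the times that chose the features. The group was thus at control level at the start and was above it on all 4 arrays from 2 h. Its medians on the 10 h and 12 h arrays overlapped, but the choice of features favours low 12 h values. A level course from 10 to 12 h is therefore not read from them. The number of the 21 past the threshold above 0 was 0 on the 0 h and 2 h arrays, then 2 (4 h), 15 (6 h), 18 (8 h) and 19 (10 h). Over all features it was 0 (0 h), 16 (2 h), 102 (4 h), 226 (6 h), 247 (8 h) and 240 (10 h). Between 10648 and 10691 features were tested at each of these times. For the 19 features raised at 12 h, the change from 10 to 12 h ran from -0.22 to 0.35 with a median of 0.16, and 14 of the 19 were higher at 12 h. Their 22 h means were higher than those at 10 h by 0.84 to 1.55 with a median of 1.34. The 12 h and 22 h arrays chose these features, so both changes are given as a description.

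GP001G2 and GP057F6 followed the same course. GP001G2 began at -0.06 ± 0.30 (0 h; SD, n = 4) and read 0.49 ± 0.35 (2 h), 0.59 ± 0.48 (4 h), 1.004 ± 0.280 (6 h) and 1.30 ± 0.92 (8 h). By 10 h it was 2.32 ± 0.33, which differs from its 12 h mean by less than the spread. The wide 8 h value came from replicate 3, at 0.01 against 1.31 to 1.97 on the other arrays. GP057F6 began at -0.03 ± 0.20 (0 h) and read 0.72 ± 0.29 (6 h) and 1.52 ± 0.57 (10 h). Both first passed the threshold at 6 h (limma adjusted p = 0.00642 and 0.0189).

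**Figure D3:**
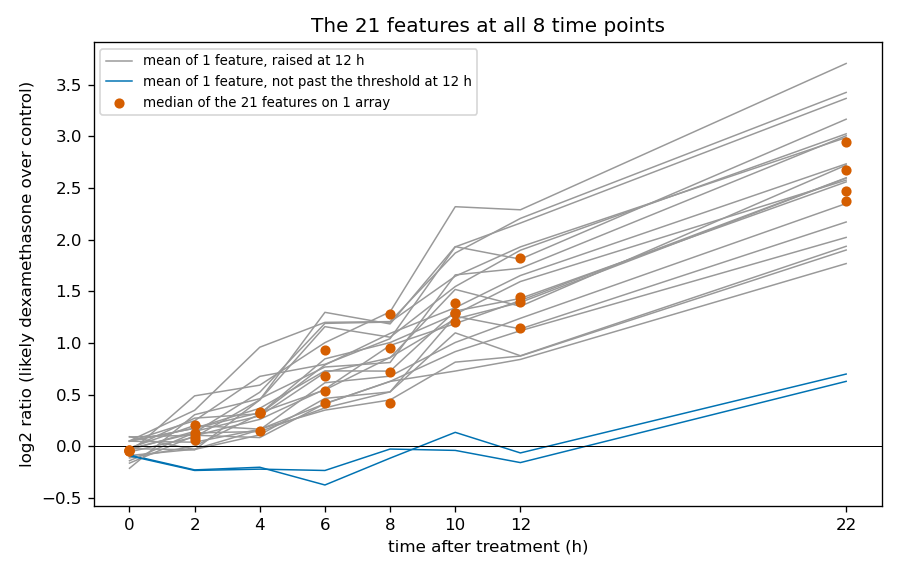
Mean log2 ratio of each of the 21 features at the 8 time points (grey lines for the 19 raised at 12 h, blue for the 2 that were not) and the median of the 21 on each array (orange points), against hours of treatment. The median starts near 0, lies between 1.21 and 1.38 on the 10 h arrays and 1.14 and 1.82 on the 12 h arrays, and reaches 2.38 to 2.94 on the 22 h arrays.

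The size of the gain differed between replicate numbers. Replicates 1 and 3 share a dye orientation, as do replicates 2 and 4, and an effect of orientation was not tested. The direction of the gain in each orientation and replicate number is fixed by the choice of features on these same 8 arrays without overlap. That direction is no added support. Among arrays with the treated RNA in channel 2, the difference was 0.86 to 1.80 with a median of 1.22, and among arrays with it in channel 1 it was 0.62 to 1.47 with a median of 0.94. The median gain from the 12 h to the 22 h array was 0.90 for replicate 1, 1.43 for replicate 2, 1.49 for replicate 3 and 0.57 for replicate 4. Replicate 3 gave the largest gain in 17 of the 21 features and replicate 4 the smallest in 16. Single arrays accordingly set how many features passed, with 5 without replicate 3 at 22 h, 8 without replicate 2 at 12 h, 11 without replicate 3 at 12 h and 31 without replicate 4 at 22 h. All 21 kept a higher ratio at 22 h in each of these fits, which their choice without overlap largely fixes, so it is no added support.

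Features raised at 10 h, taken from arrays that are in neither the 12 h nor the 22 h mean, gained on the whole by little. The 240 features above 0 past the threshold at 10 h had a median difference of 0.16, with an interquartile range from -0.01 to 0.43, and 174 of them (72.5%) had a difference above 0. The median over all features tested was -0.01, with 48.6% above 0. The median of the 240 on an array was 0.78, 0.74, 0.67 and 0.74 at 12 h and 0.98, 0.83, 0.94 and 0.87 at 22 h, so every 22 h array was above every 12 h array. With the arrays scaled to the same spread this direction turned, to a median of -0.04 with 101 of the 240 above 0. Of the 240, 19 were among the 21 features called higher, where 0.196% of all features were called.

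By the size of the 10 h ratio, the median gain was highest in the class from 1 to 2, and the ranges of the classes overlapped widely. The 42 features under 0.5 at 10 h had a median difference of 0.04, and the 121 from 0.5 to 1 had one of 0.08, with 3 called. The 57 features from 1 to 2 at 10 h had a median of 0.74, 51 of them were above 0 and 15 were called. The 20 features at 2 or more had a median of 0.32, 18 of them were above 0 and 1, GP001G2, was called. Their median ratio was 2.25 on the 12 h and 2.49 on the 22 h arrays, and for the class from 1 to 2 it was 1.49 and 2.17. With scaled arrays the median stayed above 0 for the features from 1 to 2 alone, at 0.33 with 36 of 57 above 0, and was -0.02, -0.07 and -0.20 for the features under 0.5, from 0.5 to 1, and at 2 or more. No test was made of these differences between size classes, and the calls in each stand beside the same 0.196% over all features.

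**Figure D4:**
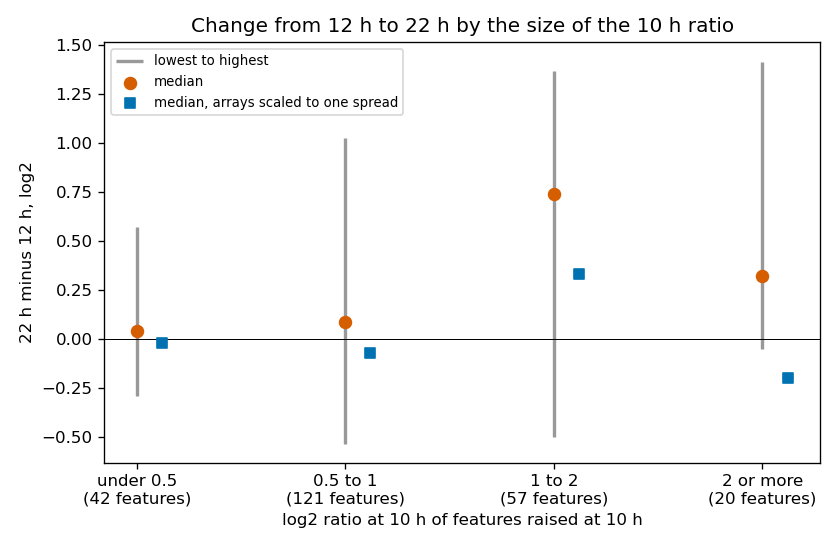
Difference of 22 h minus 12 h (log2) for the 240 features raised at 10 h, in 4 classes of their 10 h ratio. Grey lines run from the lowest to the highest feature, orange points are medians (0.04, 0.08, 0.74 and 0.32) and blue squares are medians with the arrays scaled to one spread, which are below 0 in every class except 1 to 2.

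Features below control at 10, 12 or 22 h did not show a change past the threshold. Of the 112 features below control past the threshold at 6 h, 1 was called higher at 22 h than at 12 h. At 12 h, 58 features (0.542%) were lower than control past the threshold and at 22 h 174 (1.63%), but the smallest adjusted p for the difference among the 174 was 0.307. The 174 had a median ratio of -0.33 at 12 h and -0.54 at 22 h. They were chosen on the 22 h arrays, which favours lower values there. The 97 features lowered at 10 h, taken from other arrays, had medians on the 12 h arrays of -0.57, -0.37, -0.40 and -0.25 and on the 22 h arrays of -0.57, -0.51, -0.28 and -0.29. These groups overlapped, and 40 of the 97 had a difference above 0, with a median difference of -0.05 that turned to 0.08 with scaled arrays. The feature with the smallest p on the lower side went from 0.34 ± 0.56 (SD, n = 4) at 12 h to -0.37 ± 0.29 at 22 h, a difference of -0.71 (95% interval -1.12 to -0.30, limma adjusted p = 0.295).

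The median standard error of the difference was 0.19 on the log2 scale, and a feature with that error needed a difference of 0.88 to reach the p of the last feature called. The 2 features called below 0.88, at 0.76 and 0.79, had standard errors of 0.14 and 0.16. Of the 10307 features with 8 values, 46 had a difference of 1 or more and 4 one of -1 or less. Among the 46, 16 were called. The other 30 had standard errors of 0.24 to 1.29 and adjusted p-values of 0.0671 and above, so they did not pass in the fit without the replicate block. The 4 on the lower side ran from -1.43 to -1.13 with standard errors of 0.56 to 0.74. Just outside the threshold, at adjusted p-values from 0.0515 up to 0.1, lay 9 features, all 9 with a higher ratio at 22 h, by 0.57 to 1.25, and 6 of them raised at 12 h.

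The whole distribution of ratios was wider at 22 h than at 12 h. The interquartile range of the log2 ratios was 0.40, 0.31, 0.32 and 0.39 on the 12 h arrays and 0.46, 0.50, 0.45 and 0.43 on the 22 h arrays, without overlap (exact permutation test of 4 against 4, two-sided, p = 0.0286, the smallest that 70 splits allow, adjusted p = 0.0381 over 4 measures). The share of features beyond 2-fold in either direction was 2.13% ± 0.50 (SD, n = 4) at 12 h and 4.30% ± 1.20 at 22 h, again without overlap. Above 2-fold the share went from 1.41% ± 0.46 to 2.69% ± 0.67 (exact permutation p = 0.0286, adjusted p = 0.0381). Below 2-fold it was 0.61, 1.16, 0.64 and 0.46% at 12 h and 2.23, 1.92, 1.98 and 0.31% at 22 h, where replicate 4 was the lowest of all 8 arrays (exact permutation p = 0.143, adjusted p = 0.143). The 12 h arrays were narrow beside those just before them, since the mean interquartile range was 0.46 (6 h), 0.42 (8 h) and 0.43 (10 h) against 0.36 for 12 h and 0.46 for 22 h. The mean share beyond 2-fold was likewise higher before 12 h, at 2.70% (6 h), 3.68% (8 h) and 3.10% (10 h). With the arrays scaled, all 21 features kept a higher ratio at 22 h, by 0.43 to 0.86 with a median of 0.63 in place of 1.11, and none passed the threshold. Their direction had been chosen on these same arrays. The part of the overall widening in the 21 calls was not tested further.

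**Figure D5:**
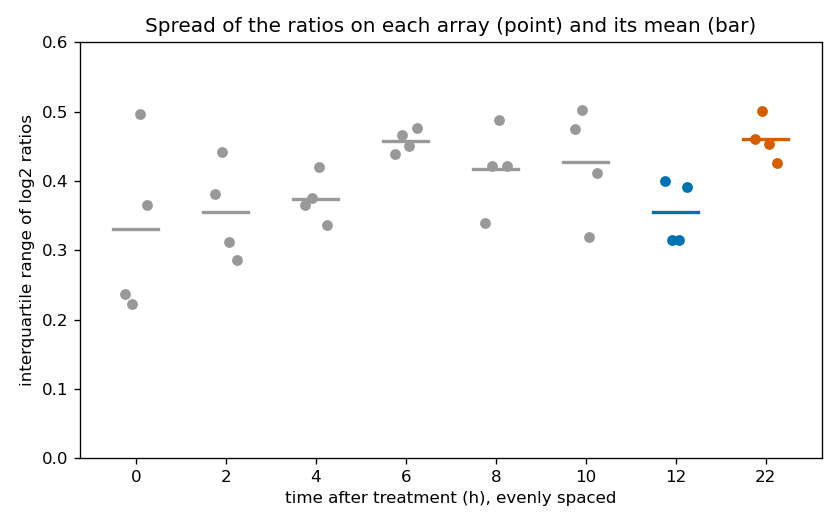
Interquartile range of the log2 ratios of all tested features on each array (points, replicates 1 to 4 from left to right) and the mean of the 4 arrays (bars), at the 8 time points in order. The 12 h arrays (blue, 0.31 to 0.40) lie below the 22 h arrays (orange, 0.43 to 0.50), and the 6 h arrays lie at 0.44 to 0.48.

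The step from 12 to 22 h was the only one between neighbouring times in which limma called any feature at this setting. The 6 earlier steps, each of 2 h, called 0 features, with 237 (12 minus 10 h) to 607 (10 minus 8 h) at an unadjusted p under 0.05, and 1 feature in all with limit values kept. The last step had 423, fewer than the steps ending at 2 h (457), 4 h (512) and 10 h (607). Its 21 calls fell to 0 with scaled arrays. The steps had the same median standard error, 0.19, but the last one spans 10 h, and neighbouring steps share arrays. Counts of features different from 0 at each time are given without a test of the change. There were 240 features above and 97 below control at 10 h, 253 and 58 at 12 h, and 457 and 174 at 22 h. Above 4-fold there were 22 called features at 12 h and 52 at 22 h, and below 4-fold 0 at either time.

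By plate position, the 21 features came from 15 of the 114 plates. Plate 1, picked as the plate with the most calls, held 4 of them, GP001G2 included, among 93 tested features. Over the whole array 0.196% of 10699 features were called. Of the other plates, 3 held 2 each. The 4 on plate 1 had 12 h means of 1.39 to 2.29 and 22 h means of 2.60 to 3.71, and gained 1.20 to 1.42. Of the 93, 6 had a mean above 2-fold at 22 h, and over the whole array 187 features (1.75%) did. Clones of 1 transcript may occupy several positions, so 21 features can be fewer than 21 genes.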

How the data were processed

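The deposited log10 ratios, 1 column for each of 32 arrays, were used as the authors gave them. Per the labels' descriptions they come from Rosetta Resolver. Background correction, normalization and numerator: not given in the sources used here. Scale was taken as log10. Array medians were 0.00092 to 0.0152 and the extremes had an absolute value of exactly 2, which a log ratio of another base could also show. Every fold value given here rests on the log10 scale. Signal over background could not be examined.

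Values were multiplied by 3.32 to give log2 ratios, replicates 2 and 4 were turned, and limit values were set to missing. All 32 arrays were fitted with limma 3.58.1 in R 4.3.3, with time point and 1 dye term per feature (23 residual degrees of freedom), and 22 h minus 12 h as a coefficient. P-values were adjusted by Benjamini-Hochberg over 10699 features. The fit was tested on simulated data with independent noise and 1 spread per feature at all times. That setting lacks the wider 22 h arrays and the correlation of same-numbered arrays, and is no support for the calls. Alternatives covered limit values, dye, blocks, scaling, weights, filters and left-out arrays. Named features are the 2 with the largest gain among those called, with 8 values and no overlap. Lower ones were called in 0 cases. Lists of floral and other genes could not be applied without names.

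Members, lists and tests were chosen with earlier results of these data known. Replicate numbers pair arrays by the data alone: the deviations of same-numbered 12 h and 22 h arrays from their time means correlated at 0.246 to 0.320, and at 0.213 and 0.247 with the dye effect removed.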

Additional observations from a re-analysis of the deposited data

Results flagged for a closer look

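The difference between the 12 and 22 h responses, tested directly with limma, passed the threshold for 21 features, GP001G2 at 1.42 and GP057F6 at 1.37 among them. Of 50 groups of 4 arrays examined for a value far from the other 3, 3 held one by Dixon's criterion, where chance gives about 1 in 20, or 2.5. GP057F6 at 6 h read 1.15 on replicate 1 against 0.53 to 0.62 on the others. The share of features below 2-fold at 22 h was 0.311% on replicate 4 against 1.92 to 2.23% on the others. The median of the 21 features at 4 h was 0.147 on replicate 3 against 0.320 to 0.336 on the others.

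Values at the upper limit, which the comparison left out, numbered 112, 151 and 29 on replicates 1, 2 and 4 at 12 h, and 159, 47 and 26 on replicates 1, 3 and 4 at 22 h. The 0 h arrays had 3 to 7. None of the 21 features had such a value on the 8 arrays.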

How the results depend on the processing

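The 21 features had a higher ratio at 22 h in each of the 22 alternative settings, apart from the turned sign, and 0 features were called lower in any of them. Their direction was largely fixed by their choice on these same arrays, without overlap, and is no added support. Several settings repeat the same differences, and the threshold of 0.01 is the main fit read more strictly. The count of 21 became 49 with the replicate block, 3 with replicates 1 and 2, and 3 and 4, averaged as dye swaps (411 at an unadjusted p under 0.05), 10 at a threshold of 0.01, and 5 to 31 with 1 array left out. It was 0 by limma with the 8 arrays alone (354 unadjusted), with scaled arrays (359) and without the arrays with over 100 upper-limit values (448), which leaves 2 arrays at 12 h and 3 at 22 h and so has fewer arrays by construction. The unadjusted counts given here lie under the share of 0.05 expected with no change. Other settings gave 20 to 23 calls. The cause of the other changes was not tested. Turning the sign gives 0 higher and 21 lower, -1.42 for GP001G2 and -1.37 for GP057F6. The gain in interquartile range was 0.105, and 0.0775 to 0.129 without 1 replicate number, where 3 arrays against 3 cannot go below an exact permutation p of 0.1. For features raised and lowered at 10 h, scaling, chosen after seeing the data, moved the median difference to -0.0403 and 0.0768. With limit values kept, the 6 steps before 12 h called 1 feature in all. The consensus correlation of the random block was -0.000441. The number of arrays limits the precision.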
